A study of Rattus norvegicus with 22 samples.

Results

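The genes described here code for 10 enzymes that handle EtOH and its products: Adh1, Adh5, Adh7, Cat, Cyp2e1, Aldh2, Aldh1a1, Aldh1b1, Aldh3a2 and Acss2. They were chosen by name, and all 10 were found among the 17310 gene symbols of the count files. RNA-seq was performed on the nucleus accumbens (NAc, core and shell together) of 22 adult male outbred Wistar rats. In experiment 1, 5 rats had a bottle of 6 v/v % EtOH beside water for 8 weeks and 5 rats had only water. In experiment 2, all 12 rats had the 6% EtOH bottle and water for 4 weeks, then 3 weeks of gavage and 2 further weeks of bottle access. During the gavage weeks EtOH (2.5 g/kg, 30 v/v %) was given to 6 rats 2 times each day while 6 rats were gavaged with water, so the controls of experiment 2 were EtOH drinkers as well and no water-only group exists there. Bulk tissue was sequenced, so fewer cells of a type and less RNA per cell cannot be told apart.

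EtOH is oxidised to acetaldehyde by cytosolic alcohol dehydrogenases (Adh), by the microsomal cytochrome P450 Cyp2e1 and, with hydrogen peroxide, by the peroxisomal catalase Cat. Aldehyde dehydrogenases (Aldh) turn acetaldehyde into acetate, chiefly Aldh2 in the mitochondrial matrix, and acetyl-CoA synthetase Acss2 joins acetate to coenzyme A in the cytosol and nucleus. In the liver the Adh route dominates, whereas in the brain catalase and Cyp2e1 are held to be the main oxidising enzymes.

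Between 2962291 and 5247386 reads per rat fell on genes in experiment 1 and between 6713617 and 8765472 in experiment 2. The reads lying outside annotated genes made up 48.4% to 51.1% of reads on or off genes in experiment 1 and ranged more widely, 46.1% to 58.0%, in experiment 2, where 4 libraries exceeded 52% (2 in each group). The mean share in experiment 2 was 50.1% after water gavage and 52.9% after EtOH gavage. The difference was 2.76 percentage points (exact permutation test, p = 0.175). The highest shares, 58.0% and 56.4%, were those of EtOH gavage replicates 1 and 2. All 8 markers of striatal projection neurons, among them Drd1, Drd2 and Penk, had reads in every library. Even the most alike pair of rats within a group differed by more than sampling noise, with a chi-square of 2.67 per degree of freedom, so no library was counted as a repeat of another.

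Adh1, Adh7 and Cyp2e1 gave almost no reads in the NAc. Adh1, the main hepatic alcohol dehydrogenase, Adh7, the stomach and epithelial form, and Cyp2e1 lay below the filter on low counts in both experiments and entered no test across genes. Adh1 had 4, 2, 0, 0 and 0 reads in the 5 water rats and 0, 0, 0, 2 and 2 reads in the 5 EtOH rats of experiment 1. In experiment 2 its counts were between 0 and 4 after water gavage, with 3 of 6 libraries at 0, and between 0 and 5 after EtOH gavage, with 4 of 6 at 0. Adh7 gave 0 reads in 20 of the 22 libraries and 1 read in each of the other two, EtOH replicate 4 of experiment 1 and EtOH gavage replicate 2 of experiment 2. A count of 0 allows a level of up to 3 counts, which is 0.342 to 1.01 CPM (counts scaled to the library total) across these libraries and covers counting error only.

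Cyp2e1 was the only one of these enzymes with a read in most libraries. Its counts were 0, 1, 1, 0 and 1 in water rats and 2, 3, 2, 0 and 2 in EtOH rats of experiment 1, thus 3 reads of 20130281 against 9 reads of 18409495. The groups overlapped at 0, and the difference in mean log2 CPM was 0.60 (exact permutation test, two-sided, p = 0.0635, where 5 rats against 5 allow no p below 0.00794). Without EtOH replicate 4, the EtOH rat at 0, the difference was 0.83 (exact permutation test, p = 0.00794). Leaving out that rat removed the overlap, so the choice of rat set this p at the smallest possible. No conclusion is drawn from it. In experiment 2 water gavage rats held 8 reads in all, 0 to 4 per library, and EtOH gavage rats held 11, 0 to 6 per library, a difference of 0.20 (exact permutation test, p = 0.565, smallest possible 0.00216). Adh1 did not differ beyond the spread between rats, with exact permutation p-values of 0.841 in experiment 1 and 1 in experiment 2. For Adh7, with 1 read in 1 rat of each experiment, every split of the rats gives a difference of the same size. Its exact permutation p of 1 was therefore fixed in advance, and no conclusion is drawn from it. Of the 5 hepatocyte markers searched, Alb, Apoa1, Ttr, Fgb and Serpina1, the summed level was 5.18 to 20.9 CPM in EtOH rats and 7.79 to 18.1 CPM in water rats of experiment 1, and 7.32 to 23.7 CPM against 4.86 to 23.2 CPM in the gavage groups. Within this list Fgb had 1 read in water gavage replicate 5 and none in any other library, and Apoa1 had 0 to 10 reads per library. Ttr is also a marker of the choroid plexus, so the sum is not particular to hepatocytes. Whether the reads of this list share a source with the few Cyp2e1 reads was not tested.

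The other 7 enzymes were read in every rat and passed the filter in both experiments: Adh5, Cat, Aldh2, Aldh1b1, Aldh1a1, Aldh3a2 and Acss2. The sequence upstream of the start site is shown for 4 genes that stand for the range of these findings: Adh5 and Acss2, detected in every rat, Aldh1a1, whose level varied most in experiment 1, and Cyp2e1, near 0. RefSeq promoter sequence (build GRCr8) was matched for 8 of the 10 genes. Adh1 and Aldh2 were the other two. Each line gives the 250 bases before the start, 5′ to 3′ on the strand of the gene, with capitals at every match on either strand to 1 of 3 motifs. The GC box was searched as GGGCGG. The CCAAT box was searched by the letters of its name. The TATA box was searched as TATAAA.
Adh5, chr2:229648307-229648556, + strand: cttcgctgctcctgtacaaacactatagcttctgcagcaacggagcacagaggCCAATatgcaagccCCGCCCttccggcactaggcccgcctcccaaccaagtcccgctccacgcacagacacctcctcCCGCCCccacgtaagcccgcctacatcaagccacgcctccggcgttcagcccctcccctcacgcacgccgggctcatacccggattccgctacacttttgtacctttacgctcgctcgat
Acss2, chr3:164464453-164464702, + strand: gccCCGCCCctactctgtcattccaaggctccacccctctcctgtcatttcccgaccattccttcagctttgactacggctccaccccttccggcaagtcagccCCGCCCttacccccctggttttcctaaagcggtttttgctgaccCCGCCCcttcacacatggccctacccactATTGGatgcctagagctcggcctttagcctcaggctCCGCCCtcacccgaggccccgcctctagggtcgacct
Aldh1a1, chr1:227537370-227537619, + strand: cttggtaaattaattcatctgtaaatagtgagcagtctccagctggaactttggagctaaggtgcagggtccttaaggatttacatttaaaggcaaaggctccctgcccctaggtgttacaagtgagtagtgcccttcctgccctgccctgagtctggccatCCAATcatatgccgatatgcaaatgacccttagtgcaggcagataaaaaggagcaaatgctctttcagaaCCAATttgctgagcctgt
Cyp2e1, chr1:205269717-205269966, + strand: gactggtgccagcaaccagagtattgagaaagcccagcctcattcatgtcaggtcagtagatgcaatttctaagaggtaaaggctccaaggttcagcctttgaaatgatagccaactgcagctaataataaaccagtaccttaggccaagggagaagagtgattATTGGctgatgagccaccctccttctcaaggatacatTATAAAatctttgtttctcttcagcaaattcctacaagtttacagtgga
The Adh5 and Acss2 windows held 62.4% and 62.0% G and C, with 2 and 4 GC boxes, 1 CCAAT box each and no TATA box. The Cyp2e1 window held 42.8%, with 1 TATA box, 1 CCAAT box and no GC box, and Aldh1a1 lay at 46.4% with 2 CCAAT boxes. Over 33469 rat promoter windows of the same length the median was 51.2% G and C, and 30.5% held a GC box, 34.0% a CCAAT box and 12.9% a TATA box. Of the matched windows not shown, Adh7, near 0 in reads, held 1 GC box and no TATA box. Cat and Aldh1b1, read in every rat, held no GC box, and Aldh3a2 held 1. No matches overlapped in the windows shown, and a match says only that the letters occur in this window.

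In experiment 1 no enzyme passed the test for a difference between EtOH and water rats. Of the 7 enzymes tested, 4 had a positive and 3 a negative log2 fold change (log2FC, EtOH over water). By the quasi-likelihood test of edgeR 0 of the 7 were called at an FDR (Benjamini-Hochberg adjusted p) below 0.05, and 0 had an unadjusted p under 0.05. Over all 8655 genes tested, 0% were called at that FDR and 5.58% (483 genes) had an unadjusted p under 0.05. DESeq2 likewise called 0 genes, with 632 at an unadjusted p under 0.05. The median log2FC of the 7 enzymes was 0.01, against -0.00 over all genes, and their FDRs lay between 0.914 and 0.996. All 7 overlapped between the groups, as did all but 0.843% of the genes tested.

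**Figure D1:**
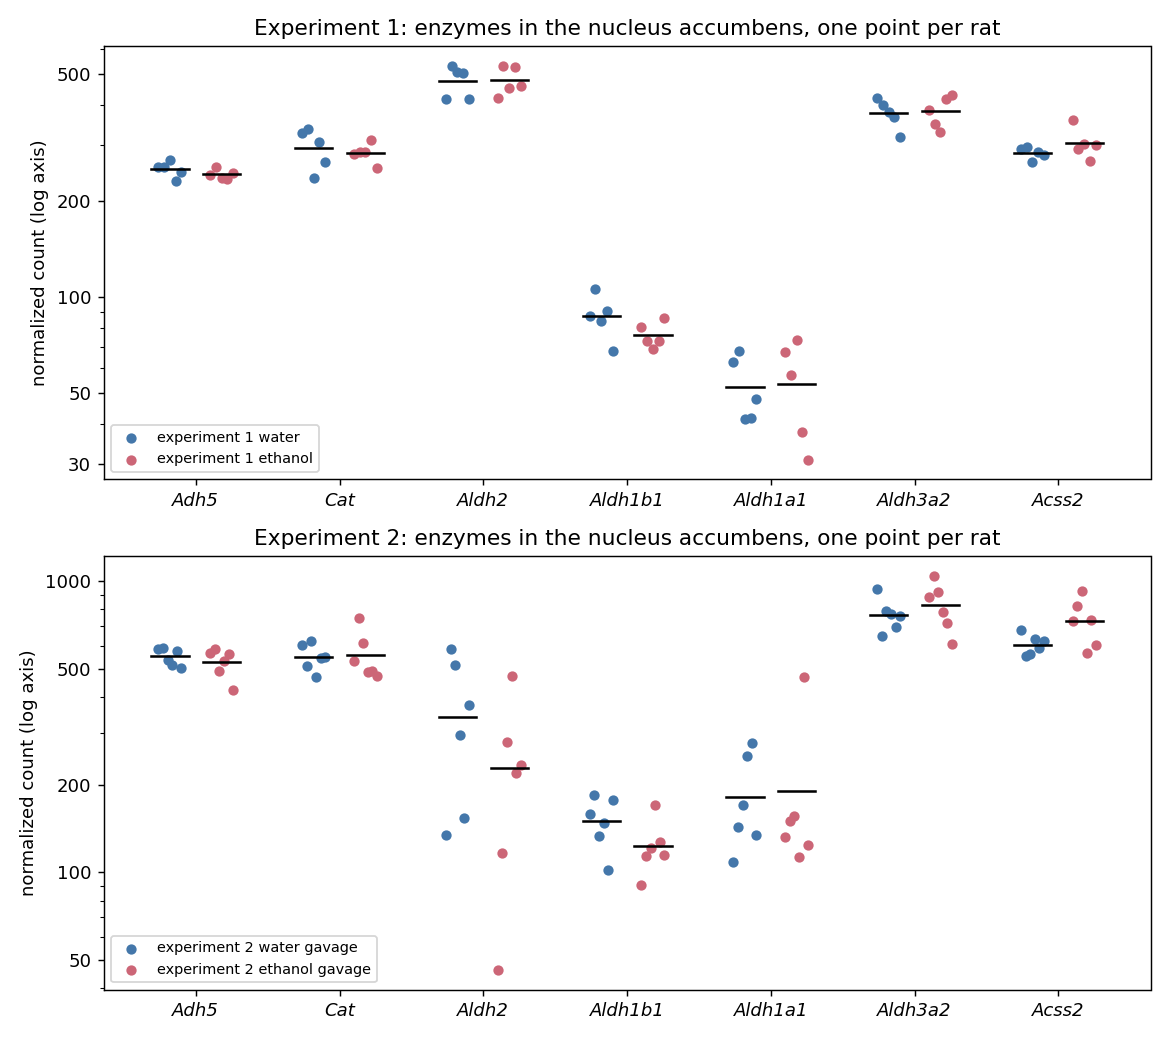
Normalized read count (log axis) of the 7 enzymes that passed the filter, one point per rat and a bar at the group mean, for experiment 1 (top, 5 rats a group) and experiment 2 (bottom, 6 rats a group). Groups overlap for every gene, and in experiment 2 Aldh2 spreads from 46.2 to 583 while Adh5 stays between 423 and 591.

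Among the oxidising enzymes, Adh5, a glutathione-dependent formaldehyde dehydrogenase that oxidises EtOH poorly, was the steadiest. Its normalized count (reads scaled to the mean library of the experiment) was 252.1 ± 14.3 (SD, n = 5) in water rats of experiment 1. EtOH rats had 243 ± 8.52 (SD, n = 5), and the log2FC was -0.06 (SE 0.07). The 95% interval, -0.21 to 0.09, corresponds to 0.866-fold to 1.07-fold. In experiment 2 the water gavage rats had 551 ± 37.4 (SD, n = 6) and the EtOH gavage rats 527 ± 60.0 (SD, n = 6), giving a log2FC of -0.07 (95% interval -0.29 to 0.16). Adh5 varied less between rats than 96.5% of the genes tested in experiment 1 and 94.8% in experiment 2.

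Cat, the catalase held to be the chief EtOH oxidising enzyme of the brain, read 237 to 337 normalized counts in water rats and 255 to 311 in EtOH rats. The log2FC was -0.04 (SE 0.10, 95% interval -0.25 to 0.17). After water gavage Cat ranged from 467 to 624.9 with a median of 547, and after EtOH gavage from 474 to 745 with a median of 513. The log2FC was 0.02 (SE 0.13, 95% interval -0.27 to 0.31), which corresponds to 0.831-fold to 1.24-fold. Red blood cells are rich in catalase. Of 5 markers of these cells, Hba2 had no read in any library, and the summed level of the list was 54.8 to 137 CPM after water gavage and 58.0 to 95.1 CPM after EtOH gavage, with the part of these cells in the Cat counts not tested.

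Aldh2, the main mitochondrial acetaldehyde dehydrogenase, had the widest range of the 7 enzymes in experiment 2. In experiment 1 it was even, with 417, 530, 510, 505 and 420 normalized counts in water rats and 423, 532, 452, 528 and 459 in EtOH rats. Water and EtOH rats overlapped almost entirely. The group means were 476 ± 53.9 (SD, n = 5) and 479 ± 48.7 (SD, n = 5), and the log2FC was 0.01 (SE 0.09, 95% interval -0.18 to 0.20). In experiment 2 the same transcript had 135, 583, 515, 297, 153 and 375 normalized counts after water gavage (replicates 1 to 6) and 46.2, 116, 281, 474, 220 and 233 after EtOH gavage. The highest rat thus had 12.6 times the count of the lowest, against 1.28 times in experiment 1. High and low rats occurred in both groups, and the groups overlapped. Group means were 343 ± 184 (SD, n = 6) with water gavage and 228 ± 148 (SD, n = 6) with EtOH gavage. The log2FC was -0.59 (SE 0.49, 95% interval -1.63 to 0.46) and the FDR in edgeR was 0.675. At 4.23%, few of the genes tested in experiment 2 varied more between rats within groups, whereas 53.3% did so in experiment 1.

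The level of Aldh2 in experiment 2 followed a property of the libraries. The 4 rats with over 52% of reads outside annotated genes, water gavage replicates 1 and 5 and EtOH gavage replicates 1 and 2, were also the 4 with the lowest Aldh2 counts, 46.2 to 153, while the other 8 rats had 220 or more. Across the 12 rats Pearson's r between log2 CPM of Aldh2 and that share was -0.94 (permutation test, p = 1e-05, the smallest that 100000 permutations allow, adjusted p 0.00028 over 28 relations) and Spearman's rho was -0.95 (permutation test, p = 2e-05, adjusted p 0.00056). Without the 2 rats farthest from the median share r was -0.88. It was -0.95 within the water gavage group (n = 6, exact permutation p = 0.00694) and -0.93 within the EtOH gavage group (n = 6, exact permutation p = 0.0111). In experiment 1, where the share hardly varied, r was -0.19 (permutation test, p = 0.601). The relation is not particular to Aldh2, since 12.5% of the 8655 genes tested in experiment 2 had an r at least as strong in either direction, and the median size of r over all genes was 0.80.

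**Figure D2:**
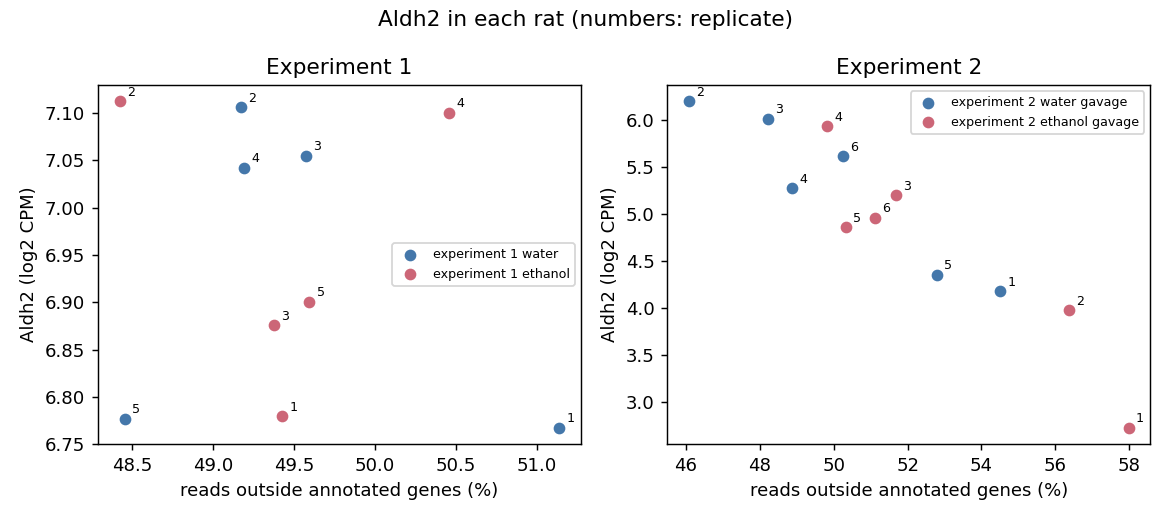
Aldh2 (log2 CPM) against the share of reads lying outside annotated genes (%), one point per rat with its replicate number, in experiment 1 (left) and experiment 2 (right); the axes of the panels differ. In experiment 2 the points of both groups descend from left to right over 46.1% to 58.0% (r -0.94), and in experiment 1 no such order is seen (r -0.19).

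Aldh2 is abundant in astrocytes, so markers of that cell type are given beside it. All 8 astrocyte markers had reads in every library, and their summed level was 5341 to 7244 CPM after water gavage and 5260 to 7161 CPM after EtOH gavage. EtOH gavage replicate 1, lowest of the 12 rats in Aldh2, had the highest Aqp4 level, 1997 CPM against 661 to 1294 CPM in the others, and the lowest Gfap level, 40.1 CPM. The 4 cortical neuron markers, led by the glutamate transporter Slc17a7, were low in the same libraries. Slc17a7 had 1 read in water gavage replicate 5, 23 in water gavage replicate 1, 13 in EtOH gavage replicate 1 and 165 in replicate 2, and between 375 and 3648 in the other 8. The part of these cells in the Aldh2 level was not tested. Adding the share of reads outside genes to the fit, an alternative chosen once the data had been seen, gave a log2FC of 0.14 for Aldh2 in place of -0.59. Without those 4 libraries it was -0.53 (FDR 0.460 in edgeR), and neither setting called it.

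Aldh1b1, a second mitochondrial aldehyde dehydrogenase close to Aldh2, had a lower mean in EtOH rats of both experiments without passing the test. It read 87.3, 106, 84.6, 90.6 and 68.1 normalized counts in water rats and 80.6, 73.0, 69.1, 72.9 and 86.3 in EtOH rats. The lowest of the 10 was a water rat. The log2FC was -0.19 (SE 0.13, 95% interval -0.47 to 0.10, FDR 0.914 in edgeR). In experiment 2 the counts were 159, 184, 134, 147, 101 and 178 after water gavage and 90.2, 114, 121, 170, 127 and 114 after EtOH gavage, again with overlap. The log2FC was -0.29 (SE 0.19, 95% interval -0.70 to 0.12, FDR 0.675 in edgeR). Aldh1b1 also ran against the share of reads outside genes in experiment 2 (r -0.62, permutation test, p = 0.0338, adjusted p 0.158; rho -0.71, permutation test, p = 0.0121, adjusted p 0.0680). Of the 8655 genes tested, 70.5% had an r at least as strong in either direction, so the relation is not particular to Aldh1b1. Without the 2 rats farthest from the median share r was -0.37 (permutation test, p = 0.299), so its size depended on those rats. With that share in the fit the log2FC of Aldh1b1 was -0.16.

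Aldh1a1, a cytosolic enzyme better known for making retinoic acid, was the most variable of the 7 enzymes in experiment 1, where only 2.58% of all genes tested varied more within groups. Its normalized counts were 62.5, 67.8, 41.6, 42.0 and 48.1 in water rats and 67.6, 57.0, 73.6, 38.0 and 31.0 in EtOH rats. The highest and the lowest value both belonged to EtOH rats, and the log2FC was 0.04 with an SE of 0.23 (95% interval -0.45 to 0.54). After water gavage it had 108, 143, 171, 251.7, 278 and 134 counts, and after EtOH gavage 132, 150, 157, 113, 468 and 124. EtOH gavage replicate 5 stood apart from the other 11 rats. With it the log2FC was 0.08 (SE 0.37, 95% interval -0.72 to 0.88), and without it -0.43 (FDR 0.669 in edgeR). Leaving out water gavage replicate 1 also turned the sign, to -0.034.

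The same rat was also highest for markers of fibroblasts and meninges. Its Col3a1 count was 985 against 25 to 46 in the other EtOH gavage rats and 12 to 201 after water gavage. Its Igf2 count was 1303 against 78 to 145 and 135 to 407, and the summed level of the list was 450 CPM against 46.8 to 61.9 CPM in that group and 45.9 to 116 CPM after water gavage. Of the 7 markers on the list, 6 had reads in every library and Col1a2 had none in any. In experiment 1, EtOH replicate 3 had both the highest summed level, 228 CPM against 76.4 to 106 CPM in the other 9 rats, and the highest Aldh1a1 count. Across the 12 rats of experiment 2, r between Aldh1a1 and the log2 summed level was 0.87 (permutation test, p = 0.0018, adjusted p 0.0252) and Spearman's rho was 0.77 (permutation test, p = 0.00518, adjusted p 0.0659). Without the 2 rats farthest from the median level r was 0.50 (permutation test, p = 0.131), so its size depended on those rats. Within groups r was 0.68 after water gavage (n = 6, exact permutation p = 0.135) and 0.96 after EtOH gavage (n = 6, exact permutation p = 0.101). In experiment 1 r was 0.50 (permutation test, p = 0.112). Only 0.173% of the genes tested in experiment 2 had an r at least as strong with this list, whose own members are among them. With the list's level in the fit the log2FC of Aldh1a1 was -0.18 in experiment 1 and -0.16 in experiment 2, and the part of these cells was otherwise not tested. Dopamine neurons of the midbrain are another known source of Aldh1a1, and all 4 of their markers searched are given. Th had 0 to 13 reads per library and Slc6a3 0 to 3, while Ddc had 34 to 108 and Slc18a2 38 to 360. Their summed level was 25.9 to 62.1 CPM over the 22 libraries, and the part of these cells in the Aldh1a1 level was not tested.

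**Figure D3:**
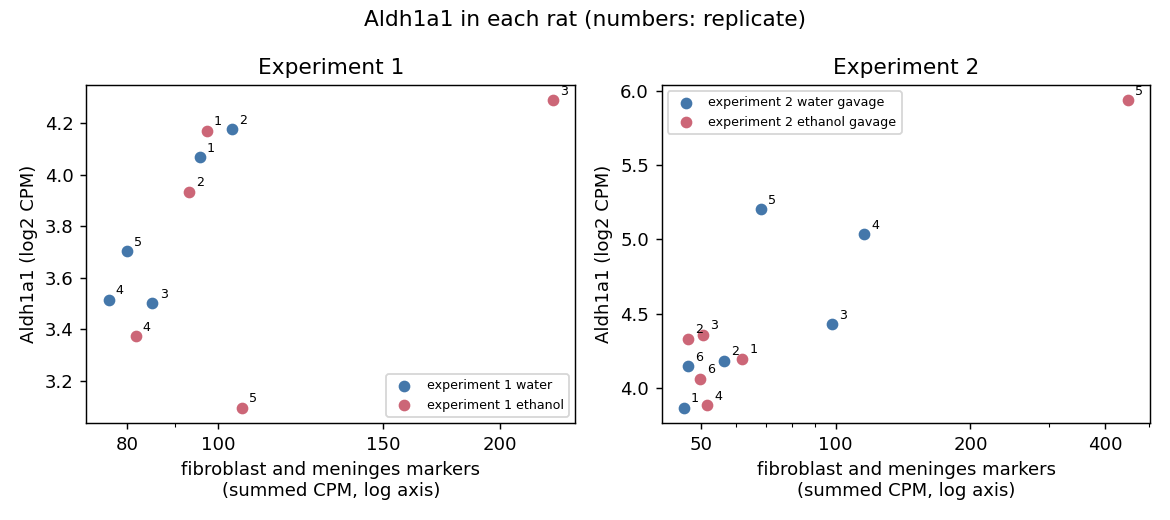
Aldh1a1 (log2 CPM) against the summed level of fibroblast and meninges markers (CPM, log axis), one point per rat with its replicate number, in experiment 1 (left) and experiment 2 (right); the axes of the panels differ. EtOH gavage replicate 5, at 450 CPM, and EtOH replicate 3 of experiment 1, at 228 CPM, are the highest of their experiment on both axes; the latter lies apart on the marker axis alone.

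Aldh3a2, the fatty aldehyde dehydrogenase of the endoplasmic reticulum, did not separate the groups. It ranged from 319 to 422 normalized counts in water rats and from 329 to 431 in EtOH rats, with a log2FC of 0.02 (SE 0.09, 95% interval -0.18 to 0.22). In experiment 2 it ranged from 648 to 940 with a median of 766 after water gavage and from 611 to 1043 with a median of 833 after EtOH gavage, with a log2FC of 0.11 (95% interval -0.19 to 0.41). Against the share of reads outside genes its r was 0.73 in experiment 1 (permutation test, p = 0.0144, adjusted p 0.101). There 3.55% of the genes tested had an r at least as strong. In experiment 2 r was 0.75 (permutation test, p = 0.00556, adjusted p 0.0519), and 57.9% of genes were at least as strong. Without the 2 rats farthest from the median share r was 0.65 in experiment 1 and 0.57 in experiment 2.

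Acss2, which uses the acetate formed from EtOH, had the lowest p of the 7 enzymes tested in experiment 2, where its mean was higher after EtOH gavage without passing the test. The normalized counts were 682, 552, 561, 633, 588 and 621 after water gavage and 728, 820, 923.7, 566, 735 and 605 after EtOH gavage. Of the EtOH gavage rats 4 exceeded every water gavage rat, and replicates 4 and 6 lay within the water gavage range. Group means were 606 ± 49.1 (SD, n = 6) and 730 ± 133 (SD, n = 6). The log2FC was 0.27 (SE 0.13, 95% interval -0.01 to 0.54) with an FDR of 0.675 in edgeR, and Acss2 ranked 139 of 8655 genes by p. In experiment 1 the counts were 292, 296, 265, 285 and 280 in water rats and 360, 292, 303, 268 and 300 in EtOH rats. EtOH replicate 1 was the highest, and the log2FC was 0.10 (SE 0.08, 95% interval -0.07 to 0.27, FDR 0.924 in edgeR) with it and 0.039 without it. The r between Acss2 and the share of reads outside genes across the 12 rats of experiment 2 was 0.66 (permutation test, p = 0.0185, adjusted p 0.104) and rho was 0.72 (permutation test, p = 0.00998, adjusted p 0.0680). Of the 8655 genes tested, 66.6% had an r at least as strong in either direction, so this relation is not particular to Acss2. Without the 2 rats farthest from the median share r was 0.52 (permutation test, p = 0.123). With that share in the fit the log2FC was 0.19.

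Taken over experiment 2, edgeR called 0 of the 7 enzymes at an FDR below 0.05 and gave 0 of them an unadjusted p under 0.05. Of all 8655 genes, 0% were called and 1.33% (115 genes) had an unadjusted p under 0.05. DESeq2 called 0 genes too, with 315 genes at an unadjusted p under 0.05, among them Acss2. The FDRs of the enzymes lay between 0.675 and 0.948, and their median log2FC was 0.02 beside 0.00 over all genes. None of the 7 separated the groups completely, which 0.0116% of the genes tested did. The common biological coefficient of variation was 31.3% in experiment 2 against 11.1% in experiment 1, although the libraries were deeper.

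**Figure D4:**
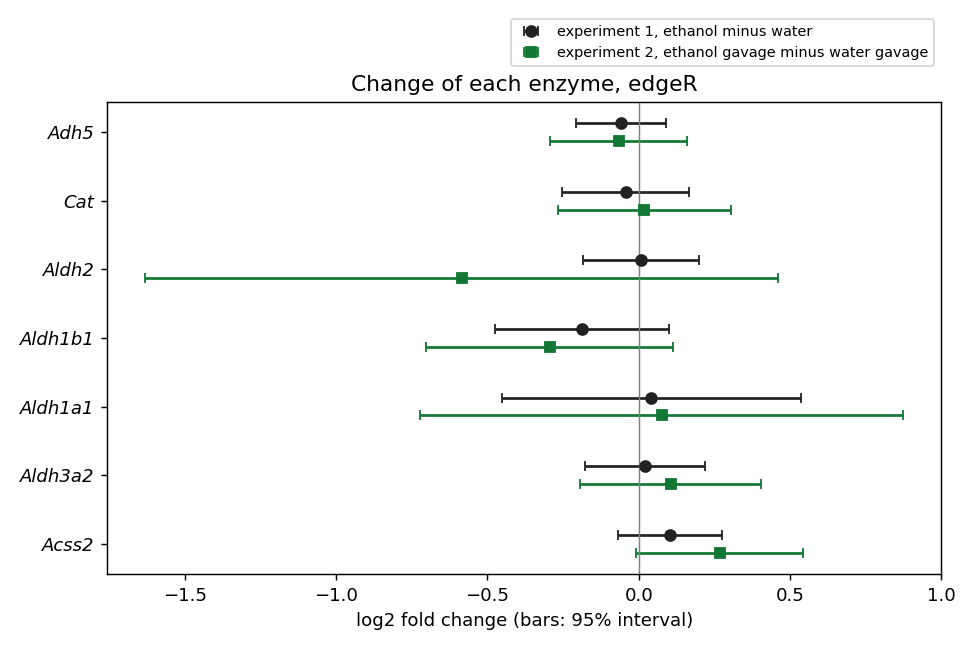
Log2 fold change of each enzyme in edgeR with its 95% interval, EtOH minus water in experiment 1 (circles) and EtOH gavage minus water gavage in experiment 2 (squares). All the intervals include 0; the widest is that of Aldh2 in experiment 2, -1.63 to 0.46, and the narrowest that of Adh5 in experiment 1.

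The change of an enzyme in experiment 2 was then compared with its change in experiment 1 in one fit of all 22 libraries. The difference, experiment 2 minus experiment 1, was largest in size for Aldh2, -0.58 on the log2 scale with an SE of 0.56 (95% interval -1.75 to 0.59), followed by Acss2 with 0.17 (95% interval -0.16 to 0.50). None of the 7 had an unadjusted p under 0.05, where 1.88% of the 8176 genes tested did (154 genes), and 0% of all genes had an FDR under 0.05 in edgeR. The experiments differ in library kit, sequencer, read length, exposure schedule, voluntary EtOH intake and controls, and one spread was shared by both. The paper states that they cannot be compared directly, since experiment 2 has no water-only control.

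Taking each rat's deviation from its group mean, the strongest pair in experiment 2 was Cat with Aldh3a2 (r 0.79 over 12 rats), followed by Aldh3a2 with Acss2 (r 0.73). In experiment 1 these pairs had an r of 0.26 and -0.01 over 10 rats. The strongest pair in experiment 1 was Aldh1b1 with Aldh3a2 (r 0.70), which had -0.13 in experiment 2. Aldh2 and Aldh1b1 had 0.64 in experiment 2 and 0.32 in experiment 1. Aldh2 and Acss2 ran in opposite directions in both, with -0.53 in experiment 2 and -0.56 in experiment 1. These coefficients describe genes read from the same libraries. Of 8175 other genes, the one whose deviations were most like those of Aldh2 in both experiments was Man2c1, a cytosolic mannosidase (r 0.88 in experiment 1 and 0.99 in experiment 2). For Acss2 it was Cyp51, the sterol demethylase of cholesterol synthesis (0.77 and 0.87). For Aldh1b1 it was Ache, acetylcholinesterase (0.86 and 0.89), and for Aldh1a1 it was Cdh5, the cadherin of endothelial junctions (0.73 and 0.68). Adh5 was most like the elongation factor Tcea1 (0.84 and 0.80), Aldh3a2 most like Mfsd11 (0.93 and 0.86) and Cat most like RGD1304595 (0.74 and 0.76).

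A wider list of 30 genes around these steps, other aldehyde dehydrogenases, electron donors of P450 enzymes, aldo-keto reductases and enzymes of acetyl-CoA, also held no gene that passed the test. In experiment 1, 19 of the 30 were tested, 5 with a positive and 14 with a negative log2FC, and their median log2FC was -0.02 beside -0.00 over all genes. Acat1, the mitochondrial acetoacetyl-CoA thiolase, had the lowest p. Water rats had 471 ± 18.8 (SD, n = 5) and EtOH rats 404 ± 41.2 (SD, n = 5), with a log2FC of -0.22 (SE 0.07, FDR 0.823 in edgeR), and it was the 1 gene of the 19 with an unadjusted p under 0.05. Acly, the citrate lyase that supplies cytosolic acetyl-CoA, followed with -0.16, the esterase Esd, which acts after Adh5 on formaldehyde, with 0.17, the mitochondrial synthetase Acss1 with 0.11, Aldh16a1 with -0.18 and Acaca, acetyl-CoA carboxylase, with -0.14. Their FDRs lay between 0.898 and 0.918.

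In experiment 2, 19 of the 30 were tested, 7 with a positive and 12 with a negative log2FC, and the median log2FC was -0.11 beside 0.00 over all genes. The lowest p was that of Aldh7a1, which acts in lysine breakdown, with a log2FC of -0.31 (SE 0.17, FDR 0.675 in edgeR). Acss1 had -0.24, Por, the reductase that feeds electrons to Cyp2e1, -0.46, Acat1 0.16, Aldh4a1 of proline breakdown -0.28 and Aldh9a1 -0.41. All 6 had an FDR of 0.675. Acat1 therefore had opposite signs in the experiments, 0.16 after EtOH gavage and -0.22 in EtOH drinkers.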

How the data were processed

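Counts were those the authors deposited, raw read counts per gene symbol for 22 libraries, without normalization. Per the paper's methods and the submitters' processing notes, polyA+ reads were aligned to rn6 (Rnor_6.0) with TopHat2 2.0.13 and counted with HTSeq. Libraries were non-strand-specific in experiment 1 and strand-specific in experiment 2. The annotation release and counting options were not given in the sources used here. Reads aligned to several places are outside the gene counts, so paralogs may be undercounted. The 5 summary lines were left out of library sizes.

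Each experiment was fitted on its own with the quasi-likelihood functions of edgeR 4.0.16 under R 4.3.3 (legacy mode, TMM library scaling), over the 8655 genes whose base mean exceeded the median of all listed genes. FDR is the Benjamini-Hochberg value over those genes. An SE is the size of the log2FC divided by the root of F. Normalized counts are divided by each library's TMM-scaled size relative to its experiment's mean. Log2 CPM used a prior count of 2. Enzymes below the filter were compared by exact permutation of log2 CPM. Replicates are separate rats. DESeq2 1.42.0 was an alternative. The scripts were tested on simulated counts.

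The 10 enzymes and the lists were chosen with earlier results of these data known. All 10 are named, with the 6 genes of the wider list with the lowest p in each experiment and the gene most alike to each enzyme. Promoters are from RefSeq, GRCr8; no genome was used, so no gene body coordinates are given.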

Additional observations from a re-analysis of the deposited data

Results flagged for a closer look

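Over 60 groups of 5 or 6 rats, 4 held a single value far from the others by Dixon's test, where about 3 would by chance alone. Aldh1a1 in EtOH gavage replicate 5 had 468 normalized counts against 113 to 157 in the other 5 rats, a gap spanning 0.877 of their range. The summed level of fibroblast and meninges markers in that same rat was 450 CPM against 46.8 to 61.9 CPM, a gap of 0.963. In EtOH replicate 3 of experiment 1 the same list reached 228 CPM against 81.6 to 106 CPM, a gap of 0.833. Acat1 in water gavage replicate 1 had 1245 normalized counts against 860 to 934, a gap of 0.808.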

How the results depend on the processing

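The count of enzymes, of wider-list genes and of all genes at an FDR under 0.05 was 0 in each experiment under every setting run: DESeq2 size factors, no filter, 10 or more counts required in each library, the newer mode of glmQLFit, DESeq2, all 4 groups in one fit, the replicate block, each rat left out, and 3 settings chosen after seeing the data. The count for the difference between experiments was 0 as well under the settings run for it. The number of genes with an unadjusted p under 0.05 was less stable. In experiment 1 it was 820 with no filter, 80 with all 4 groups in one fit and 380 to 743 when a rat was left out, lowest without EtOH replicate 4 and highest without water replicate 5. In experiment 2 it was 286 with no filter, 315 with DESeq2, 587 with all 4 groups in one fit, 414 with the replicate block, 916 without the 4 libraries with over 52% of reads outside genes, and 28 to 776 when a rat was left out, lowest without water gavage replicate 2 and highest without EtOH gavage replicate 4. For the difference between experiments it was 429 with no filter, 339 with the replicate block and 85 to 644 when a rat was left out, lowest without water gavage replicate 2 and highest without water gavage replicate 1. The cause was not tested.

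Some log2 fold changes changed sign, and none of these passed a threshold. The largest of them was Aldh2 in experiment 2, at -0.59 without a covariate. With the replicate block Aldh1a1 was -0.040 in experiment 2 and -0.035 in the difference between experiments. The correlation of the deviations of same-numbered rats ran from -0.13 to 0.14 in experiment 1 and from -0.76 to 0.84 in experiment 2. Some same-numbered rats of experiment 2 thus deviated together and others in opposite directions. With no common sign, the numbers were not taken as pairs. With the share of reads outside genes as a covariate, Cat was -0.076, Aldh2 0.14 and Aldh3a2 -0.024 in experiment 2. With the fibroblast and meninges marker level as a covariate Aldh1a1 was -0.18 and -0.16 in experiments 1 and 2. Without the 4 libraries Cat was -0.033 in experiment 2. The difference for Adh5 was 0.013 with DESeq2 size factors and 0.043 with no filter.

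Leaving out each rat moved the experiment 1 values to -0.12 to 0.012 for Cat, -0.037 to 0.049 for Aldh2, -0.11 to 0.18 for Aldh1a1 and -0.037 to 0.074 for Aldh3a2, and the experiment 2 values to -0.081 to 0.062 for Cat and -0.43 to 0.23 for Aldh1a1. Acss2 in experiment 1 lay between 0.039, without EtOH replicate 1, and 0.15, without EtOH replicate 4. Aldh2 in experiment 2 lay between -0.93, without EtOH gavage replicate 4, and -0.37, without EtOH gavage replicate 1. The differences between experiments ranged from -0.035 to 0.047 for Adh5, -0.022 to 0.14 for Cat and -0.45 to 0.21 for Aldh1a1. Log2 CPM differences ranged from -0.32 to 0.17 for Adh1 and 0 to 0.15 for Adh7 in experiment 1, and from -0.35 to 0.053 for Adh1, 0 to 0.14 for Adh7 and -0.026 to 0.37 for Cyp2e1 in experiment 2. Without EtOH replicate 4, which had 0 reads of Cyp2e1, the difference of Cyp2e1 in experiment 1 was 0.83 (exact permutation test, p = 0.00794). That p was the smallest possible, because leaving out this rat removed the overlap of the groups. Depth limits Adh1, Adh7 and Cyp2e1, with 0 to 6 reads per library.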

Other observations

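Within the wider list the P450 reductase Por, singled out after its values were seen, ran closest to Aldh2 in experiment 2. Its normalized counts spanned 137 to 739 over the 12 rats, and its deviations from the group means had an r of 0.997 with those of Aldh2 (0.76 in experiment 1 over 10 rats). Aldh16a1, a member of the aldehyde dehydrogenase family, spanned 9.9 to 139 (r 0.98 in experiment 2 and -0.39 in experiment 1). The esterase Esd ran the other way, with an r of -0.95 and counts of 450 to 1066, as did Aldh6a1 of valine breakdown, with an r of -0.91 and counts of 1333 to 2901. In experiment 1 Esd had an r of 0.22 and Aldh6a1 of -0.082. Of these 4 genes only Por had a like value in both experiments, but it was not alone in the wider list. Aldh4a1 had an r of 0.84 in experiment 1 and 0.91 in experiment 2. Cyb5r3 had 0.80 and 0.88, and Aldh1l1 0.60 and 0.76. These coefficients come from the same libraries and carry no test. In experiment 2 Aldh2 had an r of -0.94 with the share of reads outside genes, and the median size of that r over all genes was 0.80. The part of that share in the coefficients with Aldh2 was not tested.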
